A study of Mus musculus with 10 samples.

Results

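Ackr3, the gene of an atypical chemokine receptor, and the CXC chemokine genes Cxcl1, Cxcl12, Cxcl14 and Cxcl16 were followed across 5 cell populations of the mouse sweat gland and sole skin. All probe sets annotated to 1 of these symbols alone were taken, which gave 8 of the 20380 probe sets with a single symbol and 5 of 12393 genes. Cxcl12, Cxcl14 and Cxcl16 had 2 probe sets each, and Ackr3 and Cxcl1 had 1. The genes were chosen by symbol with their signals on these 10 arrays known, so their levels are a description and carry no test. Total RNA came from the basal and suprabasal cells of the duct, from the myoepithelial and luminal cells of the gland, and from palmoplantar epidermis of wild-type female CD1 mice, all from the paw pads. Each population had been purified by fluorescence-activated cell sorting and was hybridised to 2 arrays, which the labels number as biological replicates 1 and 2. No treatment, age, sorting marker or number of animals is given in the labels, so the spread between the arrays of a population may be partly technical. The deposited values are MAS5 signals in arbitrary units, in which each array has the same trimmed mean, and the number of arrays limits the precision.

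ACKR3 binds CXCL12 and CXCL11 and takes them up without the G protein signalling of a classical chemokine receptor, so that it removes chemokine from its surroundings and recruits arrestin. CXCL12, best known as a product of stromal and endothelial cells, signals through CXCR4. CXCL14 is made by resting epithelia, the epidermis among them. CXCL16 is made as a membrane-bound protein that the protease ADAM10 can shed, and its receptor is CXCR6. CXCL1 attracts neutrophils through CXCR2 and is a well-known target of NF-kB. Myoepithelial cells wrap the secretory luminal cells of the gland coil, and the duct that leads to the epidermis has a basal and a suprabasal layer.

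The summed signal of each marker list was highest in the population it names, though not that of each marker. The summed signal of 6 myoepithelial markers was between 112200 and 165200 on the myoepithelial arrays and at most 3436 elsewhere, and that of 6 luminal markers was 62520 and 77280 in luminal cells and at most 40130 elsewhere, on duct suprabasal array 1. For 6 basal keratinocyte markers the duct basal arrays had 75700 and 80020 and the others at most 46260. Differentiation markers of the epidermis, 6 of 7 on the array, summed to 139500 and 129100 in epidermis and at most 45150 elsewhere. For 6 duct suprabasal markers the sums were 27550 and 31950 in the cells so labelled against 8754 and 20830 in duct basal cells, and most of that signal came from the keratin genes Krt6a and Krt79. The sodium channel subunit gene Scnn1b overlapped there (538.5 and 391) with luminal cells (419 and 479). So did Scnn1g (902.5 and 680.2 against 494.7 and 746.5), while Scnn1a did not (218 and 196 against 161 and 162). By their means, 5 of 6 myoepithelial, 4 of 6 luminal, 3 of 6 basal, 5 of 6 duct suprabasal and 6 of 6 epidermal markers were highest in the population they name. The exceptions were the oxytocin receptor gene Oxtr, low everywhere (3.9 and 6.7 in myoepithelial cells), Best2 and Krt7, highest in duct suprabasal cells, Krt15, Trp63 and Lama3, highest in myoepithelial cells, and Krt6a, highest in epidermis. The duct suprabasal arrays differed most from each other, with a correlation of 0.907 over the 9310 genes tested against 0.963 to 0.981 in the other populations, and the median over all probe sets was lower on the epidermis arrays (65.7 and 67.3) than on the 8 others (92.7 to 120.1). In sorted bulk samples, fewer cells of a type and less RNA per cell cannot be told apart.

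The sequence just before the start of the receptor gene, of the ligand gene Cxcl12 and of Cxcl1 is shown because the first was brightest in myoepithelial and the second in duct suprabasal cells, while Cxcl1 was dimmest in epidermis and had no clear brightest population. RefSeq windows were found for 4 of the 5 genes. The 250 bases before the annotated start were taken from build GRCm38.p6 and are written 5′ to 3′ along the gene, all on the plus strand, at chr1:90203730-90203979 for Ackr3, chr6:117168285-117168534 for Cxcl12 and chr5:90890995-90891244 for Cxcl1. Capitals mark letters of a TATA box (TATAAA), a GC box (GGGCGG) or the 10 letters of 1 form of the NF-kB site (the capitals in the Cxcl1 line), each searched on both strands.
Ackr3: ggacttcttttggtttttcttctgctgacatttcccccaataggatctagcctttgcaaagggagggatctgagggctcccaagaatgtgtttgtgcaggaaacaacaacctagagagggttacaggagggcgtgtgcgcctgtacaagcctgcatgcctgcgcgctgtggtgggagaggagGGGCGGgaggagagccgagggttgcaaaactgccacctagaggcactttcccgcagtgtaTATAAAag
Cxcl12: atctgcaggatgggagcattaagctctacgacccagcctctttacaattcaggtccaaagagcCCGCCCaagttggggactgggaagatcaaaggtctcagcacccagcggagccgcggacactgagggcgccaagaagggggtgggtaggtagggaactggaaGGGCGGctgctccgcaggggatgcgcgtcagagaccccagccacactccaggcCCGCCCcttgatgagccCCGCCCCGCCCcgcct
Cxcl1: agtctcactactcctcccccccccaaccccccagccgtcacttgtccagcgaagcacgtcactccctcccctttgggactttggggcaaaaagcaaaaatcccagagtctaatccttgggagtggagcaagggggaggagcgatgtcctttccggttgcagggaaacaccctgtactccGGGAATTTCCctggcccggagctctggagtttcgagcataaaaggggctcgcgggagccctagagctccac
The Ackr3 window held 1 TATAAA, whose first base lay 8 bases before the annotated start, and 1 GC box. In the Cxcl12 window 5 GC boxes were found, of which the last 2 overlapped, and no TATAAA. The Cxcl1 window held the NF-kB letters once, from 71 bases before the start. The Cxcl14 window, which is not shown, held none of the letters searched. Of 32851 such windows of all genes 12.4% held TATAAA, 32.7% a GC box and 0.0852% this form of the NF-kB site. A match in these letters is a description of the window, and binding was not measured.

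Ackr3 was brightest in the outer cells of the gland. Its signal was 12934 and 16494 on the myoepithelial arrays, 4139 and 4293 on the duct basal arrays, 550.1 and 3116 on the duct suprabasal arrays, 153 and 353 in epidermis, and 35.0 and 145 in luminal cells. Both arrays of each population lay above both arrays of the next in this order, so no neighbours overlapped, but the duct suprabasal arrays differed 5.66-fold from each other and their mean of 1833 had an SD of 1810 (n = 2). The mean of 14714 ± 2520 (SD, n = 2) in myoepithelial cells was 3.49-fold that in duct basal cells (4216 ± 109) and 163-fold that in luminal cells (90.2 ± 78.1). On 1 of 10 arrays, luminal array 1, the receptor gene lay below the 40th percentile of the array. The probe set carries the suffix _s_at, which marks probes that can match more than 1 transcript. Given as log2 differences of signal plus 12 with their standard error (SE), Ackr3 stood at 7.41 (SE 0.78) between myoepithelial and luminal cells, 1.67 (SE 0.78) between duct basal and duct suprabasal cells, and 1.79 (SE 0.78) between myoepithelial and duct basal cells.

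**Figure D1:**
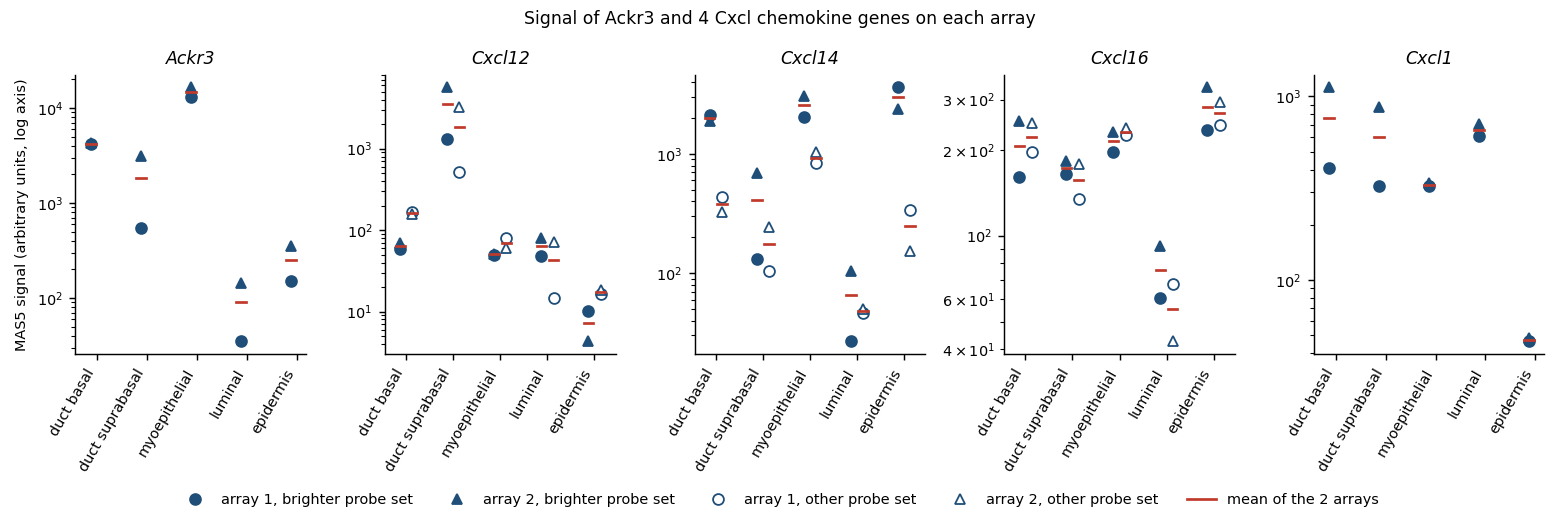
Each panel plots the MAS5 signal of 1 gene (arbitrary units, log axis) in the 5 populations; circles are array 1, triangles array 2, filled symbols the brighter probe set, open symbols the other probe set where there is one, and red bars the mean of the 2 arrays. Ackr3 was brightest on both myoepithelial arrays (12934 and 16494), both Cxcl12 probe sets were brightest in duct suprabasal cells, and Cxcl1 was dimmest in epidermis (46.3 and 48.2).

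Cxcl12, whose protein ACKR3 binds, was bright in duct suprabasal cells alone among the 5 populations. On those arrays its brighter probe set gave 1300 and 5681, against 58.4 and 69.3 in duct basal cells, 48.2 and 80.4 in luminal cells, 50 and 51.2 in myoepithelial cells, and 10.1 and 4.3 in epidermis. The mean of 3490 in duct suprabasal cells, with an SD of 3100 (n = 2), was 54.3-fold the next highest, that of luminal cells (64.3 ± 22.8). Luminal and duct basal arrays overlapped. The other probe set gave 511.9 and 3225 in duct suprabasal cells, 169 and 159 in duct basal cells and at most 79.7 elsewhere, and its mean in duct suprabasal cells was 11.4-fold that in duct basal cells. The 2 probe sets had a correlation of 0.939 over the 10 arrays, each above the 40th percentile on 7 of them. The populations brightest for receptor and ligand thus differed, with Cxcl12 at 50.6 ± 0.849 (SD, n = 2) where Ackr3 was brightest.

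Where Cxcl12 was bright, transcripts of fibroblasts and blood vessels were bright too, and unequally on the arrays. In duct suprabasal cells all 8 endothelial and all 8 fibroblast markers had a higher signal on array 2 than on array 1. The summed endothelial signal was 2937 on array 1 and 12930 on array 2, and at most 605.8 on any array of another population. The endothelial junction gene Cdh5 stood at 220.3 and 2018, and the VEGF receptor gene Kdr at 399 and 1942. The summed fibroblast signal was 17120 and 93010 in duct suprabasal cells, from 21750 to 44340 on the duct basal and myoepithelial arrays, and from 1110 to 6538 on those of luminal cells and epidermis. On the myoepithelial arrays most of it came from Postn (19850 and 28037) and Dcn (11955 and 15303), with 4 of 8 markers above the 40th percentile. In duct basal cells most of it came from Dcn (22039 and 18361), with 7 and 8 of 8 markers above that percentile. Of the chemokine genes, Cxcl12 was 4.37-fold, Cxcl14 5.21-fold and Cxcl1 2.70-fold higher on array 2, and Cxcl16 1.11-fold. On the log2 scale of signal plus 12 the difference between these arrays was 2.48 for Ackr3, 2.28 for Cxcl14 and 2.12 for Cxcl12, and 1.63%, 2.3% and 3.0% of the genes tested had one at least as large. The luminal arrays differed in the same direction for Ackr3 (1.74) and Cxcl14 (1.59), and there all 8 fibroblast markers (2303 and 6538 in sum), all 6 basal keratinocyte markers (1124 and 3263) and all 6 duct suprabasal markers (1752 and 4250) were brighter on array 2 as well. In duct suprabasal cells 4 of 6 basal keratinocyte markers were brighter on array 2 and 2 on array 1, with sums of 23180 and 32930. Among them Col17a1 had 306 and 1994, and Krt5 had 1652 and 5105. Luminal markers went the other way there, with all 6 brighter on array 1 and sums of 40130 and 18760. The part of these other cells in the signals of Ackr3, Cxcl12 and Cxcl14 in duct suprabasal cells was not tested.

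**Figure D2:**
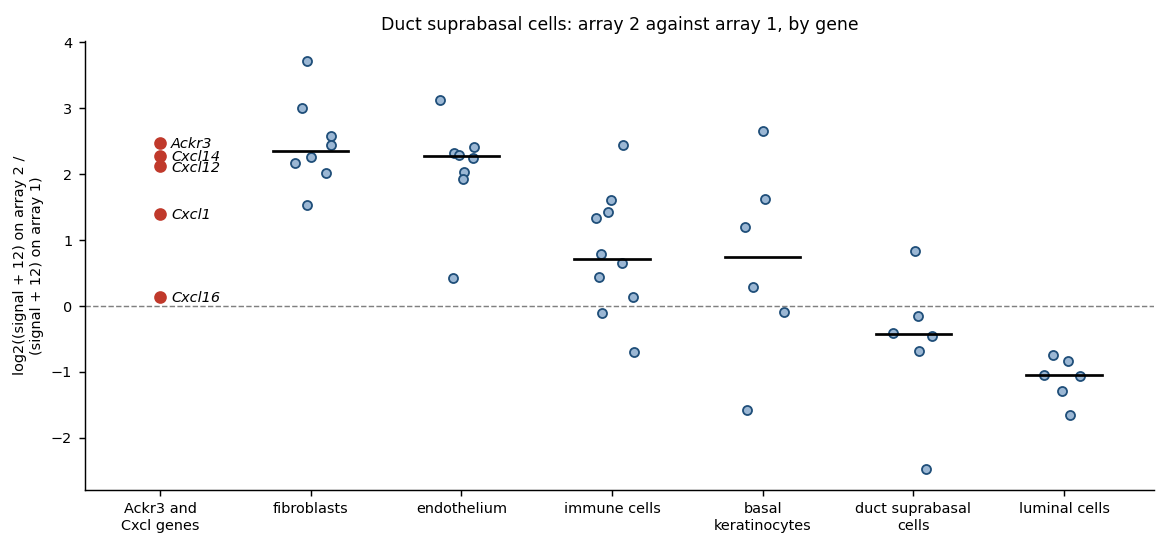
Each point is 1 gene in duct suprabasal cells, and the vertical axis is the log2 ratio of its signal plus 12 on array 2 over that on array 1; red points are Ackr3 and the Cxcl genes, blue points marker genes of the cell type named below, black bars their median and the dashed line equal signal. Ackr3 (2.48), Cxcl14 (2.28) and Cxcl12 (2.12) lay in the range of the fibroblast and endothelial markers. They also lay in the wide range of the basal keratinocyte markers, of which 4 were brighter on array 2 and 2 on array 1. All 6 luminal markers lay below 0.

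Cxcl14 was bright in epidermis and in both outer layers and dim in luminal cells. Its brighter probe set gave 3633 and 2402 in epidermis, 2046 and 3090 in myoepithelial cells, 2116 and 1875 in duct basal cells, 132 and 689 in duct suprabasal cells, and 26.7 and 105 in luminal cells. The arrays of epidermis, myoepithelial and duct basal cells overlapped along this order, and those of duct suprabasal and luminal cells lay below them without overlap. The mean of 1996 ± 170 (SD, n = 2) in duct basal cells was 4.86-fold that in duct suprabasal cells, and the log2 difference between myoepithelial and luminal cells was 5.23 (SE 0.70). With the other probe set, which carries the suffix _a_at for transcripts of 1 gene, the order changed at the top. There myoepithelial cells had 838 and 1030.1, duct basal cells 435 and 324, epidermis 341 and 153.5, duct suprabasal cells 105 and 243, and luminal cells 46.5 and 49.8. Averaged over both probe sets, epidermis lay below myoepithelial cells by a log2 difference of -0.87, against 0.23 for the brighter one. Both probe sets put luminal cells lowest, and their correlation was 0.851 over the 10 arrays.

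Cxcl16, the gene of the membrane-bound chemokine, was of low signal everywhere and varied least of the 5 genes. The range was 235 to 331 in epidermis, 197 to 232 in myoepithelial cells, 160.0 to 253 in duct basal cells, 164 to 182 in duct suprabasal cells, and 60.3 to 91.7 in luminal cells. Only luminal cells stood clear of their neighbour, with a mean of 76.0 ± 22.2 (SD, n = 2) against 173 ± 13 in duct suprabasal cells, apart from the small step between epidermis and myoepithelial cells. Epidermis exceeded myoepithelial cells by a log2 difference of 0.37, which was 0.80 after quantile normalization. The other probe set gave the same order of means, from 269 ± 34.9 in epidermis to 55.3 ± 17.9 in luminal cells, but its duct basal and duct suprabasal arrays did not overlap, and its correlation with the first was 0.914.

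Cxcl1, the neutrophil attractant gene, was detected above the 40th percentile on all 10 arrays and was dimmest in epidermis. Its signal was 409 and 1123 in duct basal cells, 612 and 705 in luminal cells, 325 and 876 in duct suprabasal cells, 325 and 337 in myoepithelial cells, and 46.3 and 48.2 in epidermis. The arrays of the first 3 populations overlapped, as did those of duct suprabasal and myoepithelial cells, and epidermis lay below all others, 7.01-fold under the myoepithelial mean. In duct basal cells the arrays differed 2.75-fold, and 1.49% of the genes tested had a difference in that direction at least as large. Without duct basal array 2 the difference between duct basal and luminal cells turned from 0.047 to -0.67. Several marker lists differed in the same direction there, the early response to tissue dissociation among them. The summed signal of 12 such genes, Fos, Jun and Atf3 among them, was 91440 on duct basal array 1 and 159800 on array 2, with 11 of 12 brighter on array 2, between 74460 and 125900 in the other sweat gland populations, and 22650 and 31480 in epidermis. On the duct suprabasal arrays, where Cxcl1 was 2.70-fold higher on array 2, the same genes summed to 78710 and 74460, with 4 of 12 brighter on array 2. On duct basal array 2 the duct suprabasal markers (8754 and 20830) and the differentiation markers (23370 and 45150) were higher as well. The part of these transcripts in the signal of Cxcl1 was not tested.

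Set side by side in the 5 comparisons of neighbouring populations, the arrays did not overlap for 4 of the 5 genes between myoepithelial and luminal cells, where the same held for 70.9% of all genes tested. The number was 3 between duct basal and duct suprabasal cells (53.7% of all genes), 3 between myoepithelial and duct basal cells (63.9%), 4 between luminal and duct suprabasal cells (57.9%) and 4 between duct basal cells and epidermis (71.4%). These counts follow from the choice of the genes, and nothing is read from them. Ackr3 was higher in the outer cells of both gland and duct, Cxcl12 was lower in duct basal than in duct suprabasal cells (-5.17, SE 0.59) and overlapped between the gland layers, and Cxcl1 was lower in myoepithelial than in luminal cells (-0.96, SE 0.51). Between duct basal cells and epidermis the differences were 4.11 (SE 0.78) for Ackr3 and 3.54 (SE 0.51) for Cxcl1. Cxcl12 lay below the 40th percentile on both epidermis arrays with both probe sets, so no size is given for it. The differences were negative for Cxcl14 (-0.57, SE 0.70) and Cxcl16 (-0.45, SE 0.32). Over the 10 arrays the correlation of log2 signals was 0.873 between Cxcl14 and Cxcl16, 0.629 between Ackr3 and Cxcl14, and 0.18 between Ackr3 and Cxcl12, as a description of arrays that share populations.

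Genes with a pattern like that of each of the 5 were sought among 3139 tested genes whose population means spanned at least 4-fold, by the Pearson correlation of log2 signals over the 10 arrays. Closest to Ackr3 were Antxr1, the gene of an anthrax toxin receptor (0.988), Ext1, a heparan sulfate polymerase gene (0.987), the matrix protein gene Matn2 (0.985), the Notch ligand gene Dll1 (0.981) and St3gal2, a sialyltransferase gene (0.978). Ext1 had 924 and 1328 in myoepithelial cells and 62.8 and 73.4 in luminal cells. Closest to Cxcl12 were Rsad2 (0.991), Kdr (0.987), Sox17, a transcription factor gene active in arterial endothelium (0.985), Sema7a (0.984) and the sialomucin gene Podxl (0.980), each bright on duct suprabasal array 2. For Cxcl14 they were Setd4 (0.962), the apolipoprotein gene Apoe (0.957), the transcription factor gene Cebpa (0.955), Phgdh (0.948) and Pard6g (0.941). Trim29 (0.963), Hibadh (0.943), the small heat shock protein genes Hspb8 (0.943) and Hspb1 (0.941), and Dynll1 (0.932) followed Cxcl16. The genes nearest to Cxcl1 were Tax1bp3 (0.952), Fam117a (0.945), Eci2 (0.941), Smim3 (0.938) and B9d2 (0.936), which were all dimmest in epidermis. These are the highest of 3139 correlations for each gene and carry no test.

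**Figure D3:**
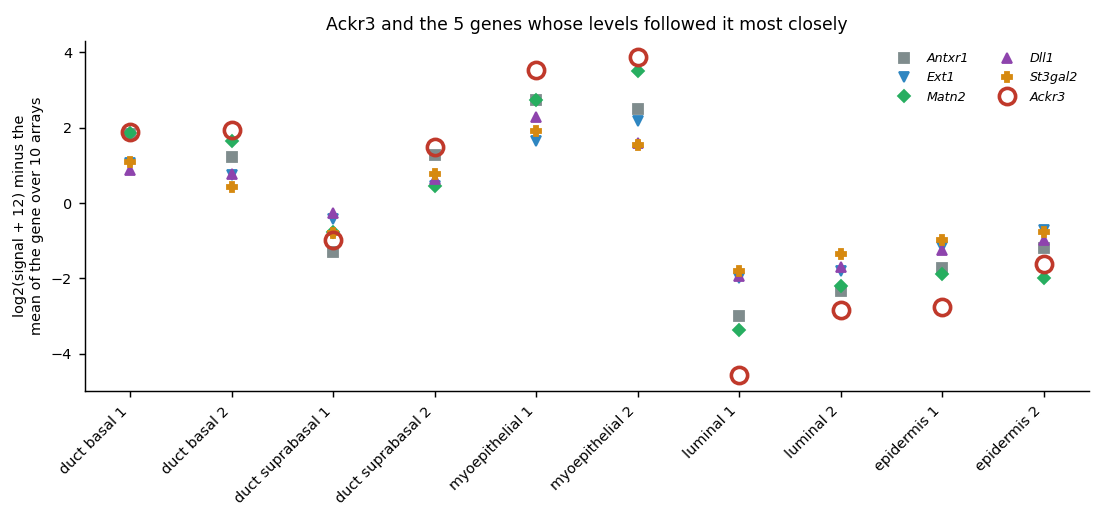
The vertical axis is log2 of signal plus 12 minus the mean of that gene over the 10 arrays named on the horizontal axis; red rings are Ackr3 and the other symbols the 5 genes with the highest correlation to it. On duct suprabasal arrays 1 and 2 all 6 genes differed in the direction of Ackr3 (550.1 and 3116), and all were highest in myoepithelial and lowest in luminal cells by their means.

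The rest of the chemokine network was read from 7 lists that hold 111 other genes, of which 102 were on the array and 69 were tested. By limma's F test across all populations, 45 of these 69 differed at an adjusted p under 0.05 (65.2%), which was close to the 65.8% of all genes tested. Of other CXC and CX3C ligand genes 4 of 5 passed, of CC and XC ligand genes 5 of 12, of receptor genes 4 of 10, of other ACKR3 ligands and their receptors 7 of 8, of receptor signalling genes 7 of 12, of chemokine processing and heparan sulfate genes 11 of 11, and of NF-kB and cytokine input genes 7 of 11. Receptor genes that pair with the 5 genes were of low signal. Cxcr4, the classical receptor gene for CXCL12, had 172 and 317 in myoepithelial cells, 84.1 and 254 in duct basal cells, 73.1 and 246.5 in duct suprabasal cells, 25.5 and 45.9 in luminal cells, and 18.8 and 1.0 in epidermis. It passed between duct basal cells and epidermis (limma, adjusted p = 0.00977). This call ended without duct basal array 2 (log2 difference 2.264) or epidermis array 2 (2.375). Cxcr4 also passed between myoepithelial and luminal cells (log2 difference 2.402, SE 0.69, limma adjusted p = 0.0272). That call ended with a pseudocount of 1 (limma adjusted p = 0.0844) or quantile normalization (0.0627). It also ended without myoepithelial array 2 (log2 difference 1.985), luminal array 1 (2.089) or luminal array 2 (2.716). Cxcr2 (at most 48.5) and Cxcr6 (at most 21.1) did not reach the level set for testing.

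Between myoepithelial and luminal cells, 18 of the 69 network genes were higher in myoepithelial cells and 8 lower, against 16.5% and 14.6% of all genes tested (31.1% in either direction), with a median log2 difference of 0.44 beside 0.08 over all genes. Myoepithelial cells held more transcript of Rgs2, a brake on G protein signalling (6382 and 9264 against 160.2 and 259, log2 difference 5.16, SE 0.31, limma adjusted p = 1.56e-05). They also held more of Ramp1, a partner of the calcitonin receptor-like receptor (2930.2 and 4291 against 398 and 523, log2 difference 2.92, SE 0.30, adjusted p = 0.000246), of the matrix protease gene Mmp2 (5.14, SE 0.69, adjusted p = 0.000938), of Ext1 (3.81, SE 0.34, adjusted p = 0.000104) and of the syndecan gene Sdc1 (1.53, adjusted p = 0.00176). Of the 11 tested genes of chemokine processing and heparan sulfate, 4 were higher and 3 lower in myoepithelial cells. Lower were another syndecan gene, Sdc4 (-1.24, limma adjusted p = 0.00751), Hs6st1, a sulfotransferase gene (-1.21, adjusted p = 0.0113), and Dpp4 (-2.345, adjusted p = 0.0015). Without myoepithelial array 2 or luminal array 2 the calls for Sdc4 (-1.05 and -1.06) and Hs6st1 (-1.11 and -1.26) ended. Hs6st1 also missed without luminal array 1 (-1.16). Calcrl, the gene of the receptor that Ramp1 partners, did not exceed the 40th percentile on any array of these populations (32.7 and 35 against 14.6 and 32.2). Among ligands, Pf4, a platelet and macrophage chemokine gene, had 843 and 1163 against 74.5 and 242 (2.76, SE 0.50, adjusted p = 0.00358), and Ccl9 had 319 and 496 against 36.8 and 59.3 (2.80, adjusted p = 0.00183). Beside them, 8 of 10 immune cell markers lay above the 40th percentile on each myoepithelial array, with sums of 5842 and 7973 against at most 1579 elsewhere, and the T cell gene Cd3e stood at 8.4 and 6.1. The part of immune cells in Pf4 and Ccl9 was not tested. Luminal cells held more Arrb1, an arrestin gene (-1.18, limma adjusted p = 0.013), a call that ended without myoepithelial array 2 (-0.82) or luminal array 1 (-1.06). Arrb2, the other arrestin gene of the list, went the other way (253 and 391 against 141.5 and 164, log2 difference 0.99, adjusted p = 0.0302). That call ended with quantile normalization (0.84, adjusted p = 0.0868) or averaged probe sets (0.67, 0.202). It also ended without myoepithelial array 2 (0.69) or either luminal array (0.90 and 1.09). The network count was 10 without myoepithelial array 2, 12 without luminal array 1 and 13 without luminal array 2.

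Between the duct layers, 2 of the 69 network genes were higher in duct basal cells and 14 lower, against 7.98% and 8.39% of all genes (16.4% in either direction), with a median log2 difference of -0.21 beside -0.02. Of the 8 tested genes of other ACKR3 ligands and their receptors, 5 were lower in duct basal cells and 0 higher, with a median of -2.86. Penk, which encodes the enkephalins that ACKR3 can bind, had 28.3 and 62.4 in duct basal cells and 840.7 and 3400.2 in duct suprabasal cells (-4.96, SE 0.68, limma adjusted p = 0.0028). Calcrl, the receptor gene that with Ramp2 makes an adrenomedullin receptor, had 89.6 and 21.5 against 551 and 1703 (-4.07, SE 0.64, adjusted p = 0.00484), and Ramp2 had 138 and 101 against 596 and 3032 (-3.39, SE 0.67, adjusted p = 0.0116). Ramp1 was lower as well (-2.81, SE 0.30, adjusted p = 0.001), at 68.1 and 61.6 against 524 and 528, with like signals on both duct suprabasal arrays. The summed endothelial and fibroblast markers, given above, both moved with Penk, Calcrl and Ramp2 from array 1 to array 2, and their part in these genes was not tested. Adam10, whose protease can shed CXCL16, was also lower in duct basal cells (1402 and 878 against 3372 and 3207, log2 difference -1.56, SE 0.25, adjusted p = 0.00484). Ccl20, the ligand gene for CCR6, was higher in duct basal cells, at 306 and 240.4 against 34.7 and 30.7 (2.67, SE 0.38, adjusted p = 0.00344). The network count was 9 and 6 when duct basal array 1 or 2 was left out, and 4 when the fit held no other arrays than the 4 of these layers. In that fit Calcrl (adjusted p = 0.0553), Ramp2 (0.0825) and Adam10 (0.0656) no longer passed, and Ramp2 also missed the threshold without duct basal array 2 (0.0829).

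**Figure D4:**
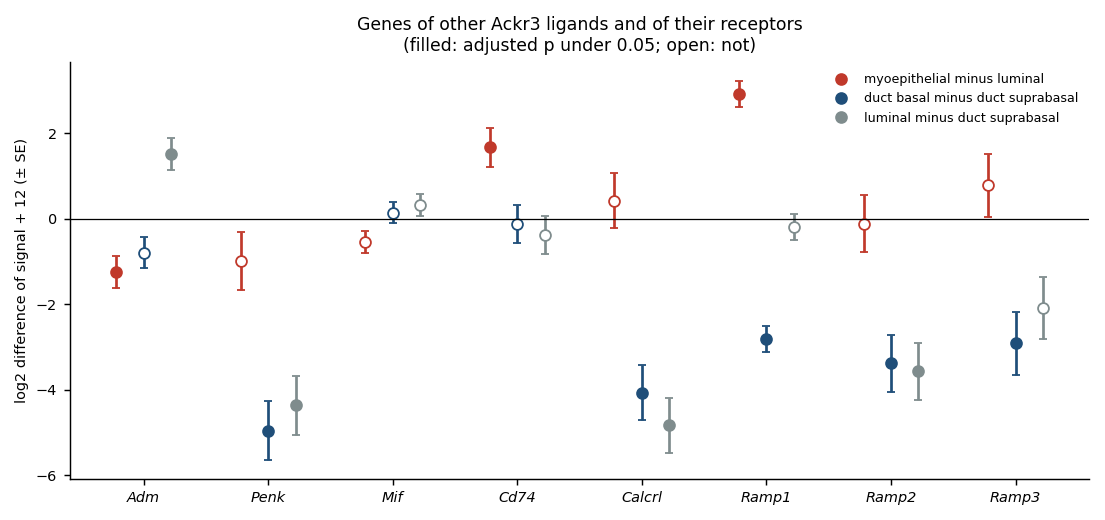
Points are log2 differences of signal plus 12 with their SE for the 8 tested genes of other ACKR3 ligands and their receptors, in 3 comparisons given by colour; filled points had an adjusted p under 0.05 and open points did not. Penk (-4.96), Calcrl (-4.07) and Ramp2 (-3.39) were low in duct basal against duct suprabasal cells, and Ramp1 was high in myoepithelial against luminal cells (2.92) and low in duct basal against duct suprabasal cells (-2.81).

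Between the outer cells of gland and duct, 11 of the 69 network genes were higher in myoepithelial cells and 5 lower, against 12% and 12.3% of all genes (24.3% in either direction). Rgs2 (6.47, SE 0.31, limma adjusted p = 5.02e-06) and Ramp1 (5.53, SE 0.30, adjusted p = 9.49e-06) were higher in myoepithelial cells, as were Pf4 (2.75, adjusted p = 0.00422) and Ccl9 (2.91, adjusted p = 0.00162). Cx3cl1, a membrane-bound chemokine gene, was higher too (466 and 474 against 132 and 193, log2 difference 1.49, adjusted p = 0.0037), but not when its probe sets were averaged (0.48, adjusted p = 0.312). Sdc1 was lower in myoepithelial cells (2421 and 3617 against 9438 and 10725, log2 difference -1.76, SE 0.24, adjusted p = 0.000865), and so was Ccl20, with 5.4 and 4.3 (-4.07, adjusted p = 0.000117). Ccl20 lay above the 40th percentile on the duct basal arrays alone, so it was tested through that population and the size of its differences depends on the added 12. The network count was 10 without myoepithelial array 1, 26 without duct suprabasal array 1 and 25 without duct suprabasal array 2.

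Between the inner cells, 3 of the 69 network genes were higher in luminal than in duct suprabasal cells and 11 lower, against 4.95% and 10.2% of all genes (15.2% in either direction). After quantile normalization the share of higher genes among all calls went from 32.6% to 42.8%. Calcrl (-4.84, SE 0.64, limma adjusted p = 0.00259) and Penk (-4.37, SE 0.68, adjusted p = 0.00489) were lower in luminal cells. So were Ramp2 (-3.57, SE 0.67, adjusted p = 0.0097) and Sdc1 (-2.76, SE 0.24, adjusted p = 0.000447). Higher in luminal cells were Sdc4 (1.23, SE 0.27, adjusted p = 0.0168) and Hs6st1 (1.18, SE 0.28, adjusted p = 0.0245). Both of these calls ended without duct suprabasal array 2 (0.93 and 0.85) or without either luminal array. Ackr1, another atypical receptor gene, which marks venules, had 462 and 2005 in duct suprabasal cells and 112 and 109 in luminal cells (-3.0, adjusted p = 0.032). The call for Ackr1 ended without duct suprabasal array 2 (adjusted p = 0.131), either luminal array (0.133 and 0.135) or either epidermis array (0.0580 and 0.0581), and Ramp2 missed the threshold without luminal array 1 (0.0808). Adm, which encodes the ACKR3 ligand adrenomedullin, was higher in luminal cells (408 and 422 against 179 and 105, log2 difference 1.52, adjusted p = 0.0253), but not without duct suprabasal array 2 (0.0995), luminal array 1 (0.121) or luminal array 2 (0.124). The network count was 3 without luminal array 1, 8 without luminal array 2, 8 without duct suprabasal array 2 and 1 when the fit held only these 4 arrays. There Calcrl (limma adjusted p = 0.0602), Penk (0.0813), Ramp2 (0.104), Ackr1 (0.104), Adm (0.0987), Sdc4 (0.114) and Hs6st1 (0.116) did not pass.

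Between duct basal cells and epidermis, 17 of the 69 network genes were higher in duct basal cells and 3 lower, against 23.0% and 11.0% of all genes (34.0% in either direction). The median log2 difference was 0.58 beside 0.24 over all genes, which quantile normalization brought to 0.0087, and the share of higher genes among all calls then went from 67.7% to 56.7%. Ccl20, which entered the test only through the duct basal arrays, was higher in duct basal cells (3.78, SE 0.38, limma adjusted p = 0.000167). Ccl27a, a skin chemokine gene, was higher there as well (176 and 252 against 10.7 and 19.3, adjusted p = 0.000232). So were the sulfotransferase gene Hs6st1 (2.02, SE 0.28, adjusted p = 0.000824), Ext1 (1.84, SE 0.34, adjusted p = 0.00315) and, on the NF-kB list, Nfkbia, the gene of the NF-kB inhibitor (6960 and 9985 against 4374.5 and 3665, log2 difference 1.06, adjusted p = 0.00632), which missed the threshold without epidermis array 2 (0.0608). On that list 3 of 11 genes were higher and 0 lower. The early response genes summed to 91440 and 159800 in duct basal cells against 22650 and 31480 in epidermis, and their part in the NF-kB genes was not tested. The network count was 9 and 11 when duct basal array 1 or 2 was left out, 12 without epidermis array 1 and 9 without epidermis array 2.

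Whether the outer-to-inner difference was the same in gland and duct was tested by the difference between the 2 differences. Of the 69 network genes 17 passed with a signed gland difference above the duct one and 2 with one below it, against 10.0% and 5.95% of all genes (16.0% in either direction). After quantile normalization the share of the first kind among all calls went from 62.8% to 50.6%. Ext1, whose pattern was close to that of Ackr3, differed by 3.81 in the gland and 0.88 in the duct (difference 2.93, SE 0.47, limma adjusted p = 0.00491). That likeness was found on these same arrays, so the result for Ext1 is no test of Ackr3. For Ackr3, with no test, the values were 7.41 in the gland and 1.67 in the duct, for Cxcl14 5.23 and 2.66, for Cxcl16 1.38 and 0.21, for Cxcl1 -0.96 and 0.34, and for Cxcl12 -0.25 and -5.17. The network count was 12 without duct basal array 1 or luminal array 2, 10 without duct basal array 2 or luminal array 1 and 9 without myoepithelial array 2.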

How the data were processed

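The authors deposited MAS5 signal intensity, per the submitters' processing notes, with no version given. Values ran from 0.1 to 72213.2, and each array had a trimmed mean of 500. Of 22690 probe sets, 64 were controls and stayed out of the tests, 20380 carried a single symbol, 691 carried several and 1555 were unnamed here. For each of 12393 genes the probe set of highest mean stood for the gene. Signals plus 12 were log2 transformed. Testing was restricted to the 9310 genes that exceeded the 40th percentile of an array on 2 or more of the 10 arrays, including all 5 genes described. A single limma fit (limma 3.58.1, R 4.3.3) over the 10 arrays, with a mean-dependent variance prior and 5 residual degrees of freedom, gave each contrast, and p-values were adjusted by Benjamini-Hochberg over the tested genes (threshold 0.05). The script was tested on simulated data. Named network genes passed that threshold with a 2-fold or larger difference and no overlap of arrays, and had a mean in the brighter population over 359.2, the median of the tested genes (the 4 largest per list, comparison and direction). Others are named to describe their list. The 5 genes and all lists were chosen with earlier results of these data known. Comparisons with a population in common use the same arrays for it. Pericyte markers summed to at most 2764 on any array, melanocyte markers to 878.2, Schwann cell markers to 1130.0 and adipocyte markers to 715.7.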

Additional observations from a re-analysis of the deposited data

Results flagged for a closer look

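The outer-to-inner difference was not the same in gland and duct for 19 network genes, by limma's test of the difference between the 2 differences, and in 6 of them the 2 differences had opposite signs and were at least 2-fold in each, though not each of them passed on its own. Rgs2 had a log2 difference of 5.16 between myoepithelial and luminal cells and of -1.42 between duct basal and duct suprabasal cells, a difference of 6.58 (SE 0.43, adjusted p = 0.000172). Ramp1 had 2.92 in the gland and -2.81 in the duct, a difference of 5.73 (SE 0.43, adjusted p = 0.00021). The myeloid chemokine gene Ccl6 differed by 4.32 (adjusted p = 0.00572), Pf4 by 3.94 (adjusted p = 0.00729) and the chemokine receptor gene Ccr2 by 3.52 (adjusted p = 0.00715), beside the immune cell markers that were highest on the myoepithelial arrays. In the gland and in the duct Pf4 had 2.76 (adjusted p = 0.00358) and -1.18 (0.137). Grk5 had 1.77 (0.0634) and -1.84 (0.082). The receptor kinase gene Grk5 differed by 3.62 (SE 0.91, adjusted p = 0.0268), and this call ended with a pseudocount of 1 (0.102), with quantile normalization (0.0571), and without duct basal array 2 (0.0984), myoepithelial array 1 (0.0744) or 2 (0.0706), or luminal array 1 (0.0591) or 2 (0.0936).

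In the other 13 the value is the signed gland difference minus the signed duct difference. It was positive for Ext1 (2.93), Ccl9 (3.73), Calcrl (4.49), Sdc2 (1.44), Penk (3.97), Mmp2 (3.91), Gnai2 (1.27), Tnfrsf1a (1.63), Traf6 (1.40), Ramp3 (3.69) and Ramp2 (3.27), and negative for Ccl20 (-2.89) and Hs6st1 (-1.91), with adjusted p from 0.00491 for Ext1 to 0.0458 for Ramp2. The sign does not say in which organ the layers differed more. Calcrl had 0.42 in the gland and -4.07 in the duct, Penk -0.99 and -4.96, Ramp2 -0.12 and -3.39, Ramp3 0.78 and -2.91, and Sdc2 0.07 and -1.38, while Hs6st1 had -1.21 and 0.70. Calcrl, Penk, Ramp2 and Ramp3 were brightest on duct suprabasal array 2, where endothelial markers (2937 on array 1, 12930 on array 2) and fibroblast markers (17120 and 93010) were higher too, and their part was not tested. Ccl20 and Ccr2 lay above the 40th percentile in duct basal and in myoepithelial cells alone, so each was tested through 1 population, and its values elsewhere depend on the added 12.

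Rgs2, Ramp1, Ext1, Ccl9, Ccl6, Pf4 and Calcrl passed in all 10 refits without 1 array. The call ended in 2 of 10 refits for Hs6st1 (without myoepithelial array 2 or luminal array 1) and Sdc2 (without myoepithelial array 1 or luminal array 2), and in 4 for Penk (without either duct basal array, myoepithelial array 2 or luminal array 1). It ended in 6 for Mmp2, 7 for Gnai2 and Traf6, 8 for Tnfrsf1a and 9 for Ramp2, and in 7 of 8 for Ramp3. For Mmp2, Gnai2, Tnfrsf1a, Ramp2 and Ramp3 these include both epidermis arrays, which are no part of the difference and leave its size as it is. The differences over the refits ran from 1.15 to 2.10 for Tnfrsf1a and from 2.10 to 4.43 for Ramp2. Fewer arrays and single arrays as the source of a lost call were not separated. Calcrl, though it passed in each refit, did not pass when its probe sets were averaged (2.34 against 4.49, limma adjusted p = 0.0689).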

How the results depend on the processing

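The processing was varied by adding 1 or 50 in place of 12, by quantile normalization, by dropping the filter or raising it to the 60th percentile, by a variance prior without trend, by blocking on the replicate number, by averaging the probe sets of a gene, by fitting the 4 arrays of a comparison alone, and by leaving out each array. With the 4 arrays of a comparison alone, the count of all genes was 242 between the duct layers (4 of the network) and 36 between luminal and duct suprabasal cells (1 of the network), with fewer arrays to estimate the spread. Averaging probe sets moved the difference of Cxcl12 between duct suprabasal and duct basal cells from 5.17 to 4.03, turned that of Cxcl14 between epidermis and myoepithelial cells to -0.87 and turned the network gene Dpp4 between duct basal cells and epidermis to 0.0086, and quantile normalization moved Cxcl16 to 0.80. Leaving out an array gave counts of all genes from 4769 to 6620 in the F test (main 6124), 1399 to 3456 between myoepithelial and luminal cells (2897), 451 to 1945 between the duct layers (1524), 1136 to 2833 between myoepithelial and duct basal cells (2260), 315 to 1994 between luminal and duct suprabasal cells (1413), 1713 to 3737 between duct basal cells and epidermis (3168) and 632 to 1986 for the layer difference (1489). Counts of network genes ran from 37 to 50, 10 to 31, 6 to 19, 10 to 26, 3 to 19, 9 to 25 and 9 to 27 in the same order. The differences between the highest and next highest population ran from 1.61 to 1.97 for Ackr3, -0.67 to 0.76 for Cxcl1, 4.12 to 6.23 for Cxcl12, -0.066 to 0.53 for Cxcl14 and 0.13 to 0.61 for Cxcl16. Cxcl1 turned without duct basal array 2 (-0.67) or luminal array 1 (-0.054), and Cxcl14 without myoepithelial array 1 (-0.064) or epidermis array 1 (-0.066). Of 111 results of network genes past the threshold, leaving out an array ended the call in 259 of 1080 refits and the other alternatives in 103 of 956, with 1 reversal, and the cause was not tested.

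Replicates 1 and 2 occur in each population, and nothing in the labels pairs them. The differences between arrays 1 and 2 correlated by 0.12 to 0.357 in the 6 pairs of sweat gland populations, all above 0.1. In the 4 pairs with epidermis the correlation was weaker but also positive, from 0.0253 to 0.0878. The numbers thus go with a shared deviation that was larger among the sweat gland arrays, and its source was not tested. With the replicate block the counts of network genes were 48 in the F test, 29 between myoepithelial and luminal cells, 17 between the duct layers, 20 between myoepithelial and duct basal cells, 19 between luminal and duct suprabasal cells, 25 between duct basal cells and epidermis and 23 for the layer difference, each within 1.5 times the count without it. Of the 111 results of network genes 110 kept their call with the block, and Rgs1 between myoepithelial and luminal cells did not (2.05, limma adjusted p = 0.0533). Over all genes the block gave 2041 calls between the duct layers and 1882 between luminal and duct suprabasal cells.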

Other observations

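Of the 102 network genes on the array 33 were not tested, because they lay above the 40th percentile on fewer than 2 arrays, and the highest signal among them on any array was 78.3. They included the ligand gene Cxcl11, whose protein ACKR3 also binds (at most 42.9), and the opioid peptide gene Pdyn (at most 28.3). Mif, whose protein is another reported ACKR3 ligand, was bright on all 10 arrays, from 15960 to 31439, and was the 1 gene of its list that did not pass the F test (limma, adjusted p = 0.349).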
